A study of Homo sapiens with 8 samples.

Results

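MYCN and 9 genes of the MYC/MAX/MXD network were followed in IGR-N91, a human neuroblastoma (NB) cell line with an amplified MYCN gene. The 10 genes, MYCN, MYCNOS, MYC, MAX, MXI1, MXD1, MXD3, MXD4, MNT and MGA, were chosen by symbol among the 60676 Ensembl gene identifiers of the count table. All 10 were measured well enough to be tested, among 16680 genes tested in all. IGR-N91 cells were grown as aggregates in hanging drops, and bulk RNA was sequenced from 8 libraries, 2 in each of 4 groups. One group was kept in control medium in which no tissue had been cultured. The others received medium conditioned by sympathetic ganglia of E8 chick embryos (E8-cSGcm), by dorsal root ganglia of E8 chick embryos (E8-cDRGcm) or by sympathetic ganglia of E15.5 mouse embryos (E15.5-mSGcm). The labels give an exposure of 20 h and the description of the series 24 h. All groups are the same cell line, so the results describe 1 genetic background, and no label says whether the paired libraries came from separate cultures. The p-values therefore measure only the spread between these libraries, which may be technical.

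MYC proteins (MYC, MYCN and MYCL) are transcription factors that bind DNA as pairs with MAX, most often at the E-box sequence CACGTG, and there raise the transcription of genes for ribosome production, nucleotide synthesis and the cell cycle. MAX also pairs with MXI1, MXD1, MXD3, MXD4, MNT and MGA, which compete for MAX and repress genes at the same sites. Amplification of MYCN on the short arm of chromosome 2 is the best known genetic mark of high-risk neuroblastoma, and MYC is usually low in tumors that carry it. MYCNOS is transcribed from the opposite strand at the MYCN locus and is annotated as a non-coding RNA.

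Levels are given as CPM, the counts of a gene scaled to a common library total, on library sizes scaled by the TMM method, which allows a gene to be compared between libraries. Where different genes are compared, counts were also divided by the length of all exons of the gene and scaled to the same total in every library (TPM). Groups were compared with edgeR's quasi-likelihood test on the counts, and p-values were adjusted over all 16680 genes by the Benjamini-Hochberg method. A gene is said to rise or fall at an adjusted p under 0.05, and is called differentially expressed when the fold change is also at least 1.5. Each conditioned medium was compared with the same pair of control libraries, so these comparisons are not independent of each other. Groups of 2 libraries often do not overlap. Against control medium this held for 63.6% of all tested genes in E8-cSGcm, 73.5% in E8-cDRGcm and 68.3% in E15.5-mSGcm. It held for 6, 9 and 9 of the 10 members. Between conditioned media it held for 62.3% to 74.9% of all tested genes.

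Total counts lay between 7930765 and 15060744 per library, and both E15.5-mSGcm libraries (7930765 and 8937397) were the shallowest. A floor of 3 counts corresponded to 0.199 to 0.378 CPM and covers counting error only. Log2 CPM of replicate libraries correlated across genes, which are not independent replicates, with r of 0.989 to 0.993. All 8 noradrenergic neuroblastoma markers that were looked up (among them HAND1, HAND2, GATA3, ISL1, TH and DBH) had reads in every library. Their summed level was 1470.4 to 1485.1 CPM in control medium, 1173.7 to 1264.0 in E8-cSGcm, 1148.2 to 1160.3 in E8-cDRGcm and 1068.0 to 1101.5 in E15.5-mSGcm. All 6 conditioned libraries lay below the control libraries in this sum. In E8-cSGcm, E8-cDRGcm and E15.5-mSGcm, 6, 7 and 6 of the 8 markers fell by adjusted p alone (edgeR). Of all tested genes, 15.2%, 24.7% and 20.0% fell. Called lower were 3, 5 and 3 of 8, against 3.86%, 10.9% and 7.27% of all tested genes. The median log2 fold changes of the 8 were -0.44, -0.88 and -0.49. The markers did not all move alike, and 1 rose in E15.5-mSGcm. HAND2, the most abundant of them, had log2 fold changes of -0.04 in E8-cSGcm, 0.01 in E8-cDRGcm and -0.48 in E15.5-mSGcm, and DBH fell in both chick media (-1.11 and -1.96) and rose in E15.5-mSGcm (0.47, adjusted p = 3.39e-05, edgeR). In bulk samples fewer cells of a type and less RNA per cell cannot be told apart. The 4 Schwann or glial markers summed to at most 1.04 CPM, with SOX10 at 0 in every library, and the 3 blood markers to at most 0.197 CPM. The endothelial marker CDH5 was at 0 in every library, and PECAM1, also looked up, was not found among the gene identifiers. A listed 0 does not by itself show that a gene is silent. The 4 fibroblast markers summed to 411 to 424 CPM in control medium and to 430 to 460 CPM in the conditioned media. In E15.5-mSGcm they went both ways, with COL1A1 called lower (log2 fold change -1.82) and COL1A2 (2.01) and LUM (0.93) called higher. The part of these markers in the results on the network was not tested.

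MYCN was by far the most abundant member of the network. It lies at chr2:15940550-15947004 on the forward strand (GRCh38.p14, RefSeq; ENSG00000134323). In control medium it had 61200 and 70102 counts, 0.473% and 0.465% of all reads, and was the 4th and 7th gene of the library by counts. Per length, MYCN reached 5273.4 ± 8.15 TPM (SD, n = 2) in control medium. The next genes in that order were far below it. MGA had 60.4 ± 2.13 TPM, MYCNOS 60.2 ± 2.93, MAX 50.9 ± 2.02 and MXI1 45.0 ± 0.898 (SD, n = 2 for each). The libraries of MGA and MYCNOS overlapped in this order, those of MAX and MXI1 did not.

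The weakest members in control medium were MXD4 at 19.0 ± 1.37 TPM, MNT at 10.5 ± 0.393, MXD1 at 9.48 ± 0.633, MXD3 at 3.72 ± 0.12 and MYC at 0.347 ± 0.0583 TPM (SD, n = 2 for each). The order below MYCN depends on the gene length that is used. With the length of 1 canonical transcript per gene in place of all exons, MAX came directly after MYCN, at 2.61% of the RNA of the network, and MXD3 passed MXD1 (0.272% and 0.179%). MYC remained the least abundant member on both scales.

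**Figure D1:**
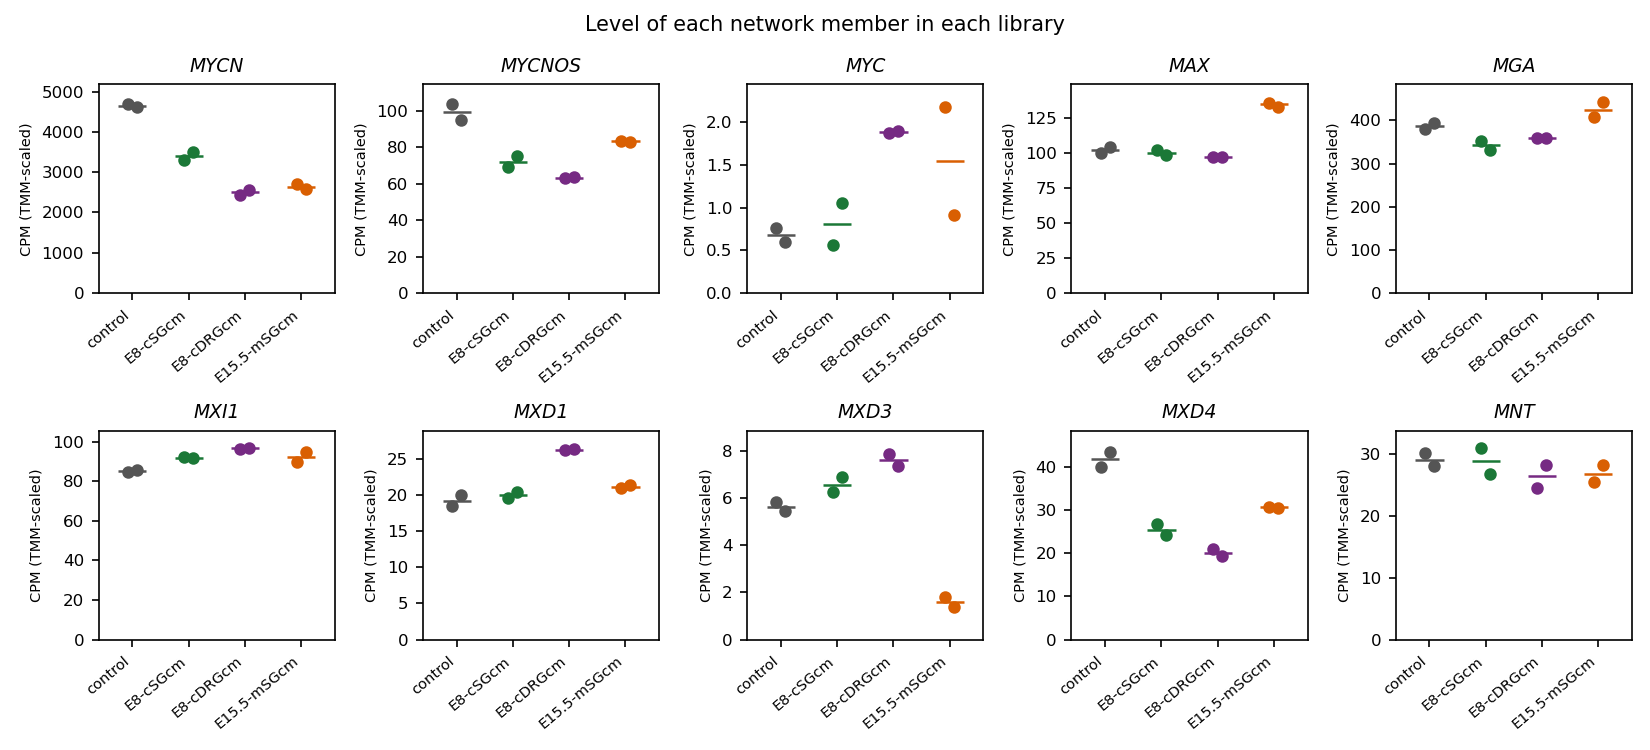
Level of the 10 network members in CPM (TMM-scaled, linear axis from 0) in control medium, E8-cSGcm, E8-cDRGcm and E15.5-mSGcm. Points are single libraries (2 per group) and lines are group means. MYCN lies at 4679.4 and 4609.9 CPM in control medium and at 3496.2 CPM or less in all 6 conditioned libraries, and MXD3 is lowest in E15.5-mSGcm.

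MYCN RNA was lower in every conditioned medium than in control medium. The control libraries had 4679.4 and 4609.9 CPM. E8-cSGcm had 3307.8 and 3496.2 CPM, E8-cDRGcm had 2433.5 and 2558.1 CPM, and E15.5-mSGcm had 2703.5 and 2572.6 CPM. No conditioned library reached the lower control library, and the libraries of E8-cSGcm did not overlap with those of E8-cDRGcm or E15.5-mSGcm. In E8-cSGcm, MYCN fell 1.37-fold (log2 fold change -0.45, SE 0.0486, adjusted p = 2.56e-09, edgeR quasi-likelihood test) and so stayed below the fold criterion. In E8-cDRGcm it fell 1.86-fold (log2 fold change -0.90, SE 0.0489, adjusted p = 8.1e-18, same edgeR test) and was called. E15.5-mSGcm gave a 1.76-fold lower level (log2 fold change -0.82, SE 0.049, adjusted p = 2.75e-16, same edgeR test), also called. The part of the lower sum of noradrenergic markers in this result was not tested.

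The media themselves also differed in MYCN. The level in E8-cSGcm was 1.36-fold that in E8-cDRGcm (log2 fold change 0.45, adjusted p = 4.26e-09, edgeR), and E15.5-mSGcm was 1.29-fold below E8-cSGcm (log2 fold change -0.37, adjusted p = 6.75e-08, edgeR). Between E15.5-mSGcm and E8-cDRGcm the difference was 0.08 on the log2 scale, with a 95% confidence interval of -0.02 to 0.18 (adjusted p = 0.172, edgeR). Despite the fall, MYCN stayed among the 15 genes with the most counts in each of the 8 libraries.

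MYCNOS (ENSG00000233718, chr2:15936265-15942433, reverse strand) was lower in the conditioned media as well, in another order. It had 104.0 and 95.3 CPM in control medium, 69.1 and 75.2 in E8-cSGcm, 63.2 and 63.6 in E8-cDRGcm and 83.5 and 83.1 in E15.5-mSGcm. None of the conditioned libraries overlapped with the control libraries, and E15.5-mSGcm was the closest to them, whereas for MYCN E8-cSGcm was the closest. MYCNOS fell 1.57-fold in E8-cDRGcm (log2 fold change -0.65, SE 0.0636, adjusted p = 6.84e-11, edgeR) and was called there. In E8-cSGcm it fell 1.38-fold (log2 fold change -0.46, adjusted p = 3.17e-07, edgeR). In E15.5-mSGcm it fell 1.19-fold (log2 fold change -0.26, adjusted p = 0.002, edgeR), and this fall was lost without the control library 1 (highest adjusted p = 0.0539 over 16 settings). MYCNOS was higher in E15.5-mSGcm than in E8-cDRGcm (log2 fold change 0.39, adjusted p = 7.63e-06, edgeR). The exons of MYCN and MYCNOS share 98 bases on opposite strands, 3.56% of the exonic bases of MYCN and 1.9% of those of MYCNOS. The strand option used in counting is not given in the sources used here, so reads in this stretch cannot be assigned. The same holds for 12.86% of the exonic bases of MYCNOS that lie opposite exons of MYCNUT.

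MYC (ENSG00000136997) was close to the limit of detection in all groups. It had 10 and 9 counts in control medium, 7 and 15 in E8-cSGcm, 25 and 26 in E8-cDRGcm and 17 and 8 in E15.5-mSGcm. Both E8-cDRGcm libraries lay above both control libraries, whereas the E8-cSGcm libraries lay on either side of them. In E8-cDRGcm, MYC rose 2.78-fold (log2 fold change 1.47, SE 0.43, adjusted p = 0.00439, edgeR) and was called. This call was lost with DESeq2 (adjusted p = 0.0739) and without control library 2 (adjusted p = 0.0548, edgeR), and over 15 settings the adjusted p ranged from 0.00192 to 0.0739. E15.5-mSGcm gave a log2 fold change of 1.16 (SE 0.495, adjusted p = 0.0623, edgeR) and E8-cSGcm one of 0.28 (adjusted p = 0.727, edgeR). Even in E8-cDRGcm, MYC reached 1.89 ± 0.0246 CPM (SD, n = 2), and per kb of exon there were 2932.2 MYCN reads for each MYC read.

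MAX (ENSG00000125952, chr14:65006101-65102695, reverse strand), the shared partner of the MYC, MXD, MNT and MGA proteins, was higher in E15.5-mSGcm. It had 99.9 and 104.0 CPM in control medium, 102.0 and 98.4 in E8-cSGcm, 96.9 and 97.2 in E8-cDRGcm and 136.0 and 133.0 in E15.5-mSGcm. The 2 E15.5-mSGcm libraries stood above all 6 others, which lay between 96.9 and 104.0 CPM. MAX rose 1.32-fold in E15.5-mSGcm (log2 fold change 0.40, SE 0.0577, adjusted p = 5.84e-07, edgeR), short of the fold criterion. Against the other conditioned media the difference was 0.43 (E8-cSGcm, adjusted p = 1.01e-07, edgeR) and 0.47 (E8-cDRGcm, adjusted p = 9.97e-09, edgeR) on the log2 scale. In E8-cSGcm and E8-cDRGcm the log2 fold changes against control medium were -0.03 (95% confidence interval -0.14 to 0.09) and -0.07 (-0.19 to 0.04). FNTB, whose exons cover 13.14% of the exonic bases of MAX on the opposite strand, had 6.47 CPM in control medium and 5.94 in E15.5-mSGcm, where its log2 fold change was -0.13 (adjusted p = 0.666, edgeR).

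The genes of the MXD proteins, which compete with MYC proteins for MAX, did not move together. MXD4 (ENSG00000123933, chr4:2247432-2262109, reverse strand) was lower in all conditioned media. Its control libraries had 39.9 and 43.5 CPM, E8-cSGcm 26.8 and 24.1, E8-cDRGcm 20.9 and 19.3 and E15.5-mSGcm 30.7 and 30.5. The 4 groups did not overlap, and E8-cDRGcm was the lowest. MXD4 fell 1.65-fold in E8-cSGcm (log2 fold change -0.72, SE 0.0873, adjusted p = 3.15e-08, edgeR) and 2.07-fold in E8-cDRGcm (log2 fold change -1.05, SE 0.0904, adjusted p = 2.45e-12, edgeR), and was called in both. In E15.5-mSGcm it fell 1.36-fold (log2 fold change -0.45, SE 0.0924, adjusted p = 0.000177, edgeR). MXD4 was called higher in E15.5-mSGcm than in E8-cDRGcm (1.52-fold, log2 fold change 0.60, adjusted p = 5.04e-06, edgeR), a call at the fold criterion that was lost without E8-cDRGcm library 2.

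MXD3 (ENSG00000213347, chr5:177305499-177312752, reverse strand) was lower in E15.5-mSGcm than in every other medium. It had 76 and 83 counts in control medium, 78 and 98 in E8-cSGcm, 105 and 100 in E8-cDRGcm and 14 and 12 in E15.5-mSGcm. Scaled to library size these were 5.81 and 5.46, 6.25 and 6.86, 7.85 and 7.33, and 1.79 and 1.37 CPM, so the E15.5-mSGcm libraries stood far below all others. MXD3 fell 3.56-fold in E15.5-mSGcm (log2 fold change -1.83, SE 0.275, adjusted p = 1.27e-06, edgeR) and was called. The difference from the other conditioned media was -2.06 (E8-cSGcm, adjusted p = 4.71e-08, edgeR) and -2.26 (E8-cDRGcm, adjusted p = 2.36e-09, edgeR) on the log2 scale. In E8-cDRGcm, MXD3 rose 1.35-fold (log2 fold change 0.43, adjusted p = 0.038, edgeR), which was lost under 6 of 16 settings. The exons of MXD3 overlap with those of RAB24 on the same strand (19.52% of its exonic bases) and of PRELID1 on the opposite strand (24.2%). In E15.5-mSGcm these neighbours had log2 fold changes of -0.43 (RAB24, adjusted p = 0.456, edgeR) and -0.21 (PRELID1, adjusted p = 0.00861, edgeR).

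MXD1 (ENSG00000059728) and MXI1 (ENSG00000119950) were higher in E8-cDRGcm by small amounts. MXD1 had 18.5 and 20.0 CPM in control medium, 19.7 and 20.5 in E8-cSGcm, 26.3 and 26.4 in E8-cDRGcm and 21.0 and 21.5 in E15.5-mSGcm. E8-cDRGcm stood above every other library, with a 1.37-fold rise against control medium (log2 fold change 0.45, SE 0.0961, adjusted p = 0.000164, edgeR). MXI1 had 84.4 and 85.4 CPM in control medium, 92.0 and 91.7 in E8-cSGcm, 96.0 and 96.9 in E8-cDRGcm and 89.7 and 94.9 in E15.5-mSGcm. It rose in E8-cDRGcm (log2 fold change 0.18, SE 0.0583, adjusted p = 0.0083, edgeR), a rise lost with DESeq2 or without control library 1 (highest adjusted p = 0.0666), and did not pass the test in the other media.

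MNT (ENSG00000070444), a widely expressed repressor that competes with MYC proteins for MAX, showed no difference that passed the test. It had 30.1 and 28.1 CPM in control medium, 30.9 and 26.7 in E8-cSGcm, 24.5 and 28.2 in E8-cDRGcm and 25.4 and 28.2 in E15.5-mSGcm. Each conditioned group overlapped with control medium, and the 95% confidence intervals of the log2 fold changes were -0.21 to 0.18, -0.33 to 0.05 and -0.33 to 0.10 in the same order.

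MGA (ENSG00000174197), a very large MAX partner that also belongs to a Polycomb repressor complex, was the member with the most counts after MYCN. It had 381.0 and 394.0 CPM in control medium, 352.0 and 332.0 in E8-cSGcm, 359.0 and 359.0 in E8-cDRGcm and 409.0 and 442.0 in E15.5-mSGcm. The conditioned libraries lay below the control libraries in both chick media and above them in the mouse medium. MGA fell 1.13-fold in E8-cSGcm (log2 fold change -0.18, adjusted p = 0.00441, edgeR), which was lost without control library 2 or E8-cSGcm library 2 (highest adjusted p = 0.0867). The log2 fold change was -0.11 in E8-cDRGcm (adjusted p = 0.0609, edgeR). In E15.5-mSGcm it was 0.13 (adjusted p = 0.0318, edgeR), but -0.06 when each library was corrected for the GC content and length of its genes, so no direction is given for that medium.

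**Figure D2:**
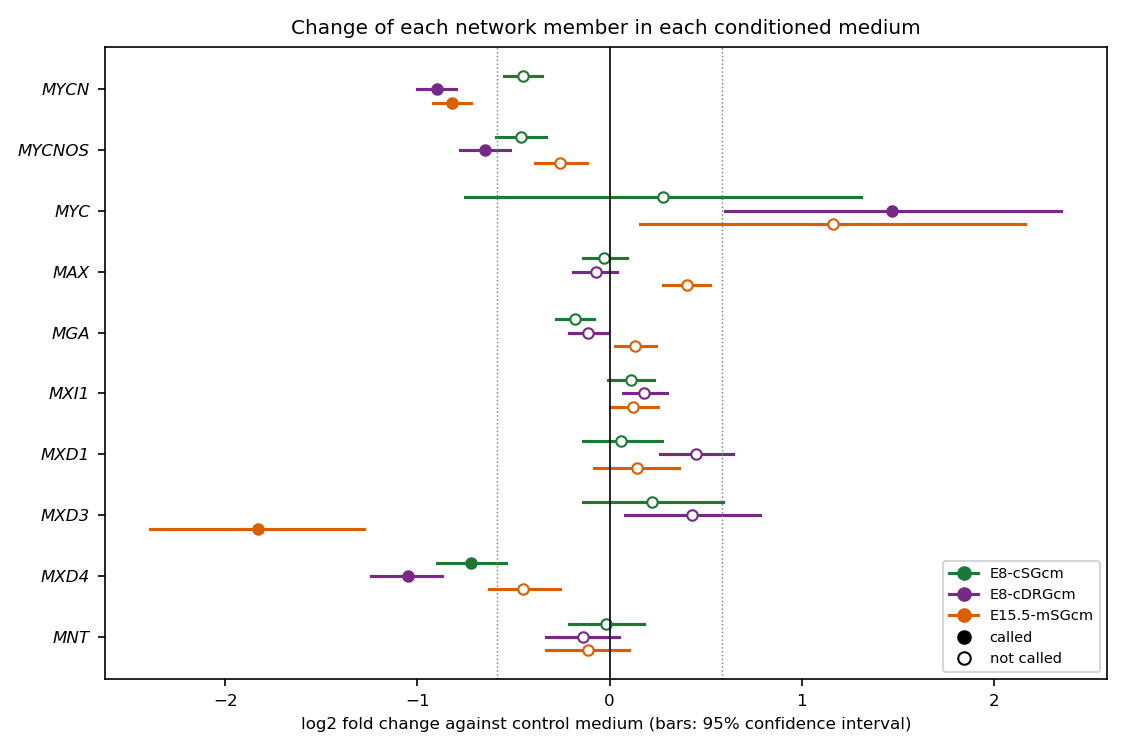
Log2 fold change of the 10 members in each conditioned medium against control medium, with 95% confidence intervals as bars. Filled points are called (adjusted p under 0.05 and at least 1.5-fold), open points are not, and dotted lines mark 1.5-fold. The points of MYCN, MYCNOS, MXD4 and MNT lie left of 0 in all 3 media, those of MNT with intervals that include 0. MXD3 in E15.5-mSGcm has the lowest value at -1.83, and the widest intervals are those of MYC.

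Counted over the network, 1 of 10 members was called in E8-cSGcm (MXD4, lower), where 8.59% of all tested genes were called. In E8-cDRGcm, 4 of 10 were called (MYC higher, and MYCN, MYCNOS and MXD4 lower), against 20.7% of all tested genes. In E15.5-mSGcm, 2 of 10 were called (MYCN and MXD3, both lower), against 13.9%. By adjusted p alone, 4 of 10 members passed in E8-cSGcm, 7 in E8-cDRGcm and 6 in E15.5-mSGcm, against 31.3%, 49.5% and 37.8% of all tested genes. Between the conditioned media, MYC was called lower in E8-cSGcm than in E8-cDRGcm, 1 of 10 members. Of all tested genes, 7.49% were called in this comparison, 2.62% lower and 4.87% higher. MXD3 was called lower in E15.5-mSGcm than in E8-cSGcm, 1 of 10 members, where 22.3% of all tested genes were called, 12.1% lower and 10.2% higher. Between E15.5-mSGcm and E8-cDRGcm, MXD3 was called lower and MXD4 higher, 2 of 10 members, against 26.2% of all tested genes, 13.1% in each direction. By adjusted p alone, 5, 6 and 6 of 10 members passed in these comparisons, against 30.2%, 49.8% and 52.6%.

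The balance within the network differed between the media. MYCN is most of the sum and the numerator of each ratio given here, so these values are not independent of its level. MYCN made up 95.3% ± 0.0545 (SD, n = 2) of the network's RNA per kb of exon in control medium, 94.3% ± 0.257 in E8-cSGcm, 92.4% ± 0.223 in E8-cDRGcm and 91.8% ± 0.386 in E15.5-mSGcm. The ratio of MYCN to MAX per kb of exon was 106.0 and 101.0 in the control libraries, 73.8 and 80.7 in E8-cSGcm, 57.1 and 59.8 in E8-cDRGcm and 45.0 and 44 in E15.5-mSGcm. The 4 groups did not overlap, and the lowest ratio was that of E15.5-mSGcm, where MYCN was lower and MAX higher than in control medium. Lengths of canonical transcripts gave ratios of 35.1, 26.2, 19.8 and 15.1 as group means, about 3 times lower in each group and in the same order.

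MYCN was also set against the sum of the 6 repressors that pair with MAX (MXI1, MXD1, MXD3, MXD4, MNT and MGA). The ratio per kb of exon was 36.4 and 34.9 in control medium, 26.7 and 29.3 in E8-cSGcm, 19.3 and 20.2 in E8-cDRGcm and 21.0 and 18.9 in E15.5-mSGcm. E8-cDRGcm and E15.5-mSGcm overlapped with each other and lay below both other groups. The ratio of MYCN to MYCNOS separated the media otherwise. It was 84.6 and 90.8 in control medium, 89.8 and 87.2 in E8-cSGcm, 72.3 and 75.5 in E8-cDRGcm and 60.7 and 58.1 in E15.5-mSGcm. E8-cSGcm overlapped with control medium, E15.5-mSGcm was below every other library, and no test was run on these ratios.

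**Figure D3:**
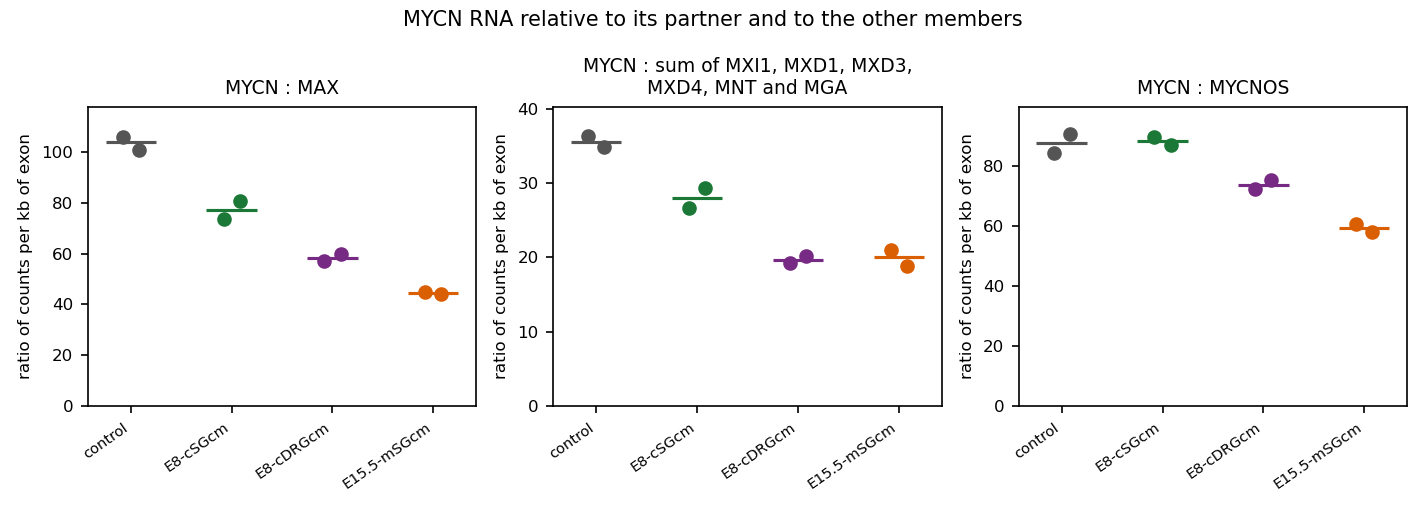
Ratios of MYCN to MAX, to the sum of the 6 MAX-partner repressors and to MYCNOS, in counts per kb of exon (linear axes from 0). Points are single libraries and lines are group means of 2. The MYCN to MAX ratio goes from a mean of 104.0 in control medium to 44.5 in E15.5-mSGcm, whereas the MYCN to MYCNOS ratio of E8-cSGcm (88.5) overlaps with that of control medium (87.7).

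Other proteins of the wider network were measured too. MYCL, the third MYC family member, had 1 and 0 counts in control medium, 8 and 7 in E8-cSGcm, 14 and 11 in E8-cDRGcm and 0 and 0 in E15.5-mSGcm. It rose in both chick media by edgeR's test (adjusted p = 0.00596 and 0.000149). Summed over both libraries, the ratio to control medium was 16.0 in E8-cSGcm (exact 95% interval 2.46 to 673.0, counting error only) and 25.4 in E8-cDRGcm (4.17 to 1044.7), and DESeq2 gave no adjusted p for either. The call in E8-cSGcm was lost without control library 2. MLX, which dimerizes with MXD1, MXD4 and MNT as MAX does, rose 1.35-fold in E8-cDRGcm (log2 fold change 0.44, adjusted p = 0.0422, edgeR). Its partner MLXIP, a glucose-sensing transcription factor, fell 1.21-fold in E8-cSGcm (adjusted p = 0.0322, edgeR) and 1.43-fold in E8-cDRGcm (log2 fold change -0.52, adjusted p = 7.26e-05, edgeR). MLXIPL was listed at 0 in all 8 libraries, as was FBL, a gene of ribosome production that every cell uses, so a listed 0 does not show that a gene is silent.

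Of the 7 genes looked up around MYCN on the short arm of chromosome 2, 1 was called in E8-cSGcm, 2 in E8-cDRGcm and 1 in E15.5-mSGcm, beside 8.59%, 20.7% and 13.9% of all tested genes. DDX1, an RNA helicase often amplified together with MYCN, had 144.0 and 141.0 CPM in control medium, 122.0 and 125.0 in E8-cSGcm, 96.7 and 97.8 in E8-cDRGcm and 130.0 and 133.0 in E15.5-mSGcm. It fell 1.15-fold in E8-cSGcm (adjusted p = 0.00264, edgeR) and 1.47-fold in E8-cDRGcm (adjusted p = 7.99e-11, edgeR), while its log2 fold change in E15.5-mSGcm was -0.12 (adjusted p = 0.0922, edgeR). TRIB2 fell in all 3 media, with log2 fold changes of -0.49, -0.51 and -0.24 (adjusted p = 2.7e-08, 3.31e-09 and 0.00173, edgeR). NBAS rose 1.17-fold in E8-cDRGcm (adjusted p = 0.00431, edgeR). FAM49A was called higher in E8-cSGcm (2.03-fold) and in E8-cDRGcm (2.55-fold), from 16 and 30 counts in control medium, and the first of these calls was lost with DESeq2 and without control library 1 or E8-cSGcm library 1. LRATD1 passed the test in no medium.

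Of the non-coding RNAs at the locus, MYCNUT had 18 and 21 counts in control medium, 15 and 11 in E8-cSGcm, 13 and 14 in E8-cDRGcm and 25 and 25 in E15.5-mSGcm. It was called higher in E15.5-mSGcm (2.18-fold, log2 fold change 1.13, SE 0.347, adjusted p = 0.00943, edgeR), where MYCN was called lower, and the call was lost with DESeq2 and without E15.5-mSGcm library 1. GACAT3 was called lower in E8-cDRGcm (log2 fold change -0.62, adjusted p = 0.00508, edgeR), a call lost under 5 of 16 settings.

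The E-box CACGTG, which reads the same on both strands, was looked for in the RefSeq promoters (GRCh38.p14), from 250 bases before to 50 bases after the start of each gene. It was present in 2030 of 27305 promoters (7.43%). Of the 9 members with a promoter in the table, all but MYC, it was present in 2, those of MXD4 and MNT. These are the windows of 30 bases around it, shown because the pair differed in its response, with the E-box in capitals and the strand of the gene:
MXD4 (chr4:2262330-2262359, reverse strand): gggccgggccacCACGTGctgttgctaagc
MNT (chr17:2401236-2401265, reverse strand): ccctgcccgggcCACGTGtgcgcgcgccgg
The E-box begins 238 bases before the start of MXD4, which fell in all 3 media, and 193 bases before that of MNT, which passed the test in none. A match describes the sequence and does not show that a protein binds there.

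To see the network's targets, a list of 64 genes known to be induced by MYC proteins was followed, most of them for ribosome production, nucleotide synthesis and chaperones. Of these, 62 were tested, CCND2 was below the filter on low counts and FBL was listed at 0 in all libraries. The E-box was present in 23 of the 55 promoters of the list that were matched (41.8%), beside 7.43% of all promoters. In E8-cSGcm, none of the 62 was called lower or higher by edgeR or by DESeq2, where 3.86% of all tested genes were called lower and 4.73% higher. At an unadjusted p under 0.05, 14 were lower and 11 higher. By adjusted p alone, 9 fell (14.5%, against 15.2% of all tested genes) and 7 rose (11.3%, against 16.1%). The median log2 fold change was -0.01, beside 0.01 over all tested genes.

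In E8-cDRGcm, 8 induced targets were called lower (12.9%, against 10.9% of all tested genes) and none higher by edgeR or DESeq2 (against 9.81%), with 7 higher at an unadjusted p under 0.05. By adjusted p alone, 37 of 62 fell (59.7%, against 24.7%) and 6 rose (9.68%, against 24.8%). The median log2 fold change was -0.22, beside 0.01 over all tested genes. In E15.5-mSGcm, 5 were called lower (8.06%, against 7.27%) and none higher by edgeR or DESeq2 (against 6.65%), with 3 higher at an unadjusted p under 0.05. By adjusted p alone, 39 fell (62.9%, against 20.0%) and 1 rose (1.61%, against 17.8%), with a median of -0.22, beside -0.02. Most of these falls were thus smaller than 1.5-fold, and the lowest log2 fold change of the list was -1.31 in E8-cDRGcm and -1.25 in E15.5-mSGcm.

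**Figure D4:**
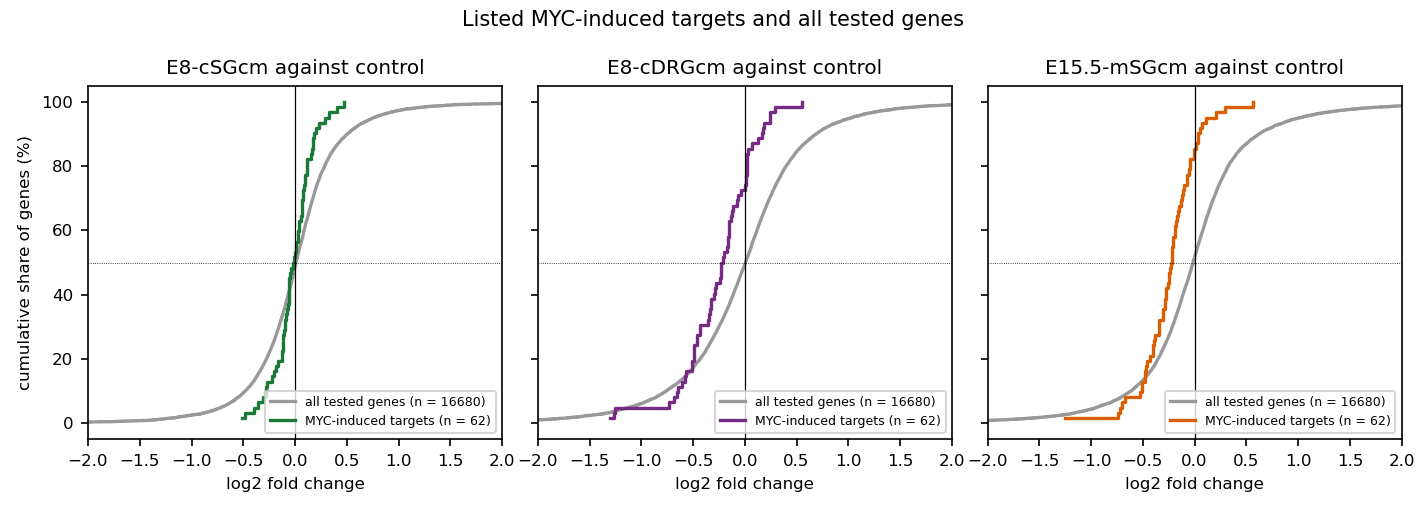
Cumulative share of genes (%) by log2 fold change against control medium, for the 62 tested MYC-induced targets (colored) and all 16680 tested genes (grey), with the axis limited to values between -2 and 2. The colored curve crosses 50% at -0.01 in E8-cSGcm, at -0.22 in E8-cDRGcm and at -0.22 in E15.5-mSGcm, while the grey curve crosses it between -0.02 and 0.01.

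Several induced targets fell by more than 1.5-fold. UTP20 and MYBBP1A, nucleolar proteins of ribosome production, had 182.0 and 186.0 CPM and 80.7 and 82.3 CPM in control medium. In E8-cDRGcm, UTP20 had 77.6 and 77.1 CPM (log2 fold change -1.25, SE 0.0576, adjusted p = 5.22e-20, edgeR) and MYBBP1A had 34.2 and 33.8 CPM (log2 fold change -1.26, SE 0.0723, adjusted p = 3.27e-17, edgeR). Their E8-cDRGcm libraries lay below all others. In E15.5-mSGcm, UTP20 had 124.0 and 139.0 CPM (log2 fold change -0.48) and MYBBP1A 52.1 and 45.5 CPM (log2 fold change -0.74, called, adjusted p = 2.24e-10, edgeR), and the call of MYBBP1A was lost when GC content and length were corrected for. SLC19A1, the reduced folate carrier, fell from 33.7 and 36.1 CPM in control medium to 13.1 and 15.2 in E8-cDRGcm (log2 fold change -1.31, adjusted p = 1.58e-13, edgeR). TFB2M, a mitochondrial transcription factor, fell 1.66-fold there (log2 fold change -0.73, adjusted p = 1.59e-08, edgeR).

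Among those called in E15.5-mSGcm, RRP9, which takes part in ribosomal RNA processing, had 45.3 and 43.9 CPM in control medium and 25.6 and 28.4 in E15.5-mSGcm (log2 fold change -0.72, adjusted p = 4.3e-08, edgeR), a call lost when GC content and length were corrected for. RRP9 was also called lower in E8-cDRGcm, with 28.4 and 30.3 CPM (log2 fold change -0.60, adjusted p = 8.73e-08, edgeR), which was lost without control library 1 or E8-cDRGcm library 1. UNG, a uracil-DNA glycosylase, had 54.4 and 52.9 CPM in control medium, 60.4 and 60.1 in E8-cSGcm, 48.2 and 45.2 in E8-cDRGcm and 33.2 and 32.7 in E15.5-mSGcm. Its E15.5-mSGcm libraries lay below all others (log2 fold change -0.70, adjusted p = 7.48e-09, edgeR). TERT, the catalytic subunit of telomerase, had 46 and 48 counts in control medium and 10 and 13 in E15.5-mSGcm (log2 fold change -1.25, SE 0.329, adjusted p = 0.00253, edgeR). In E8-cDRGcm, TERT had 35 and 45 counts, a log2 fold change of -0.17 (adjusted p = 0.601, edgeR).

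UTP20, RRP9 and MYBBP1A, named above for their falls, carry the E-box close to their start. Their windows, with the E-box in capitals on the strand of the gene, are given for comparison with those of MXD4 and MNT:
UTP20 (chr12:101280083-101280112, forward strand): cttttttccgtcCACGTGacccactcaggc
RRP9 (chr3:51941892-51941921, reverse strand): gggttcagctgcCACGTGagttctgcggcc
MYBBP1A (chr17:4555340-4555369, reverse strand): ggggccggagcaCACGTGtttcgtgtttcg
The E-box begins 10 bases before the start of UTP20, 5 before that of RRP9 and at base 28 after that of MYBBP1A. Of the other induced targets named above for their falls, TERT carries it 163 bases before its start. None was found in the promoters of SLC19A1, TFB2M and UNG. Within the list, the share of promoters with the E-box was compared between genes that fell and the others, without a test. In E8-cDRGcm it was in 15 of 33 matched promoters of genes that fell (45.5%) and in 7 of 21 of the other tested genes (33.3%). In E15.5-mSGcm it was in 14 of 35 (40%) and in 8 of 19 (42.1%), and in E8-cSGcm in 3 of 9 (33.3%) and in 19 of 45 (42.2%).

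Some genes known to be repressed by MYC proteins were called higher in each medium, and others lower in E8-cDRGcm and E15.5-mSGcm. Of 13 listed, 12 were tested, and CDKN2B was below the filter on low counts. In E8-cSGcm 4 were called higher (33.3%, against 4.73% of all tested genes). In E8-cDRGcm 4 were called higher (33.3%, against 9.81%) and 2 lower (16.7%, against 10.9%). In E15.5-mSGcm 3 were called each way (25%, against 6.65% higher and 7.27% lower). The medians were 0.36, 0.15 and 0.10, beside 0.01, 0.01 and -0.02 over all tested genes.

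NGFR, the p75 neurotrophin receptor, had 18.4 and 18.4 CPM in control medium, 31.4 and 30.4 in E8-cSGcm, 53.8 and 54.5 in E8-cDRGcm and 5.25 and 7.08 in E15.5-mSGcm. The 4 groups did not overlap, with log2 fold changes of 0.75 (adjusted p = 7.68e-08), 1.56 (adjusted p = 2.11e-17) and -1.56 (adjusted p = 3.96e-11, edgeR for all 3).

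CDKN1A, the cell cycle inhibitor p21, had 29 and 20 counts in control medium, 33 and 43 in E8-cSGcm, 58 and 56 in E8-cDRGcm and 44 and 52 in E15.5-mSGcm. It rose 2.42-fold in E8-cDRGcm (log2 fold change 1.28, adjusted p = 0.000103, edgeR) and 3.32-fold in E15.5-mSGcm (log2 fold change 1.73, adjusted p = 2.46e-06, edgeR). NDRG1, named for its repression by MYCN, rose 1.9-fold in E8-cSGcm (adjusted p = 0.00219, edgeR), a call lost without control library 2, and 3.11-fold in E8-cDRGcm (adjusted p = 4.38e-08, edgeR), and had a log2 fold change of -0.13 in E15.5-mSGcm (adjusted p = 0.773, edgeR). GADD45A, a stress-response gene, rose 2.01-fold in E8-cDRGcm (adjusted p = 4.27e-16, edgeR). THBS1, a secreted matrix protein, rose 1.66-fold in E8-cSGcm (adjusted p = 0.000148, edgeR).

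The calls in the other direction came from further genes of this list. TGM2 (12 and 9 counts in control medium, 3 and 3 in E8-cDRGcm) was called lower in E8-cDRGcm, as was INHBA (37 and 47 counts in control medium, 19 and 17 in E8-cDRGcm), and both calls were lost with DESeq2. DKK3 was called lower in E15.5-mSGcm (log2 fold change -1.03, adjusted p = 3.33e-06, edgeR), whereas NDRG2 (0.82, adjusted p = 5.71e-09) and CLU (0.77, adjusted p = 3.78e-06) were called higher there by the same edgeR test, CLU not without E15.5-mSGcm library 2.

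Cofactors and regulators of MYC proteins were followed too. Of 15 chromatin cofactors, KAT2A, a histone acetyltransferase recruited by MYC, fell 1.55-fold in E8-cSGcm (adjusted p = 8.22e-05, edgeR) and 1.9-fold in E8-cDRGcm (adjusted p = 8.74e-08, edgeR).

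Of 12 genes that act on MYC or MYCN RNA or protein, LIN28B was called in E8-cSGcm and LIN28B and AURKA in E8-cDRGcm, 1 and 2 of 12, beside 8.59% and 20.7% of all tested genes. LIN28B, an RNA-binding protein that blocks let-7 microRNAs and so raises MYCN, had 189.0 and 194.0 CPM in control medium, 127.0 and 128.0 in E8-cSGcm, 113.0 and 111.0 in E8-cDRGcm and 181.0 and 183.0 in E15.5-mSGcm. It fell 1.51-fold in E8-cSGcm (adjusted p = 1.97e-11, edgeR), a fold change at the criterion that 5 of 16 settings left below it, and 1.71-fold in E8-cDRGcm (adjusted p = 3.5e-15, edgeR). In E15.5-mSGcm its log2 fold change was -0.07 (95% confidence interval -0.18 to 0.04). The part of LIN28B in the level of MYCN was not tested. AURKA, the kinase that stabilizes MYCN protein, rose 1.56-fold in E8-cDRGcm (adjusted p = 1.55e-10, edgeR) and fell 1.19-fold in E15.5-mSGcm (adjusted p = 0.00893, edgeR). In E15.5-mSGcm none of the 15 cofactors and none of the 12 regulators was called by edgeR or by DESeq2, where 13.9% of all tested genes were called by edgeR, and at an unadjusted p under 0.05 there were 4 higher and 5 lower cofactors and 2 higher and 6 lower regulators.

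Over the 8 libraries, the genes whose log2 CPM followed MYCN most closely were CHML (Pearson r = 0.992), ARHGEF3 (0.99), MXRA8 (0.987), FERMT1 (0.987) and PLK2 (0.986). This was taken among 10338 genes with a mean log2 CPM above 3, of which 210 (2.03%) had r over 0.9. The 8 points share 4 groups of 2 libraries and their depths, so these values are a description. CHML, an escort protein of Rab GTPases, had log2 CPM of 7.99 and 8.00 in control medium, 7.75 and 7.73 in E8-cSGcm, 7.40 and 7.41 in E8-cDRGcm and 7.51 and 7.48 in E15.5-mSGcm. Like MYCN, it was highest in control medium and lowest in E8-cDRGcm. PLK2, a kinase of the polo family, had 7.70 and 7.74, 7.15 and 7.10, 6.69 and 6.71, and 6.79 and 6.58 in the same order. MYC and MXD3 were below this level and were not compared. The 7 other members compared with MYCN lay between -0.905 (MXI1) and 0.769 (MXD4), with MYCNOS at 0.751 and DDX1, outside the network, at 0.719.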

How the data were processed

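RNA of IGR-N91 aggregates was sequenced in 8 libraries, 2 per medium. The authors deposited 1 table of raw counts per gene, not normalized. Per the submitters' processing notes, the tools were bcl2fastq 2.17.1.14, cutadapt 1.9.1, TopHat2 2.1.0 and HTSeq 0.11.3. These notes name hg38 and the study's methods hg19, so positions are those of RefSeq GRCh38.p14 and were not read from the alignments. Counts were filtered with filterByExpr, scaled by TMM and tested in 1 edgeR 4.0.16 quasi-likelihood model over all 8 libraries (R 4.3.3), which was tested on simulated data. Lengths are unions of GENCODE exons. Alternatives were DESeq2 1.42.0, filters that kept genes with at least 10 counts in every library or 1 over all libraries, size factors by RLE, correction for GC content and length (spline, 5 degrees of freedom), a replicate block, only the libraries compared, and each library left out. The members and gene lists were chosen with earlier results of these data known. All members, partners and neighbours are named, and of the other lists the 4 largest rises and 4 largest falls among called genes in each medium, of which some are described. The tables hold no UMIs, and floors cover counting error only. Some genes of the lists are not reported here.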

Additional observations from a re-analysis of the deposited data

Results flagged for a closer look

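Between conditioned media, a test of the difference itself gave 4 calls of network members, in 3 comparisons. MXD3 was lower in E15.5-mSGcm than in E8-cSGcm (log2 fold change -2.06) and than in E8-cDRGcm (-2.26). MXD4 was higher in E15.5-mSGcm than in E8-cDRGcm (0.6 on the log2 scale). MYC was lower in E8-cSGcm than in E8-cDRGcm (-1.19), from 7 and 15 against 25 and 26 counts.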

How the results depend on the processing

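Of 60 pairs of a network member and a comparison, 55 kept their call under each of up to 16 settings, and 5 (MYC in 4 comparisons, MXD4 in 1) did not. Members called higher in E8-cDRGcm than in control medium numbered 1, but 0 with DESeq2 or a filter at 10 counts in every library, and 0 to 1 when 1 library was left out (0 without control library 2). Members called lower in E8-cSGcm than in E8-cDRGcm numbered 1, but 0 with that filter or DESeq2, which gave MYC no adjusted p there, and 0 to 1 with 1 library left out (0 without E8-cSGcm library 1 or either E8-cDRGcm library). For E15.5-mSGcm, members called higher than in E8-cDRGcm numbered 1, but 0 when genes with 1 count over all libraries were kept, and 0 to 1 with 1 library left out (0 without E8-cDRGcm library 2). Members called higher than in control medium or in E8-cSGcm numbered 0, and 0 to 1 with 1 library left out (1 without E15.5-mSGcm library 2).

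Of the induced targets, 0 were called lower in E8-cSGcm (0 to 1 with 1 library left out, 1 without E8-cSGcm library 2), 8 in E8-cDRGcm (5 to 10, with 5 without control library 1) and 5 in E15.5-mSGcm (4 to 8, with 8 without E15.5-mSGcm library 1, and 3 with correction for GC content and length, alone or with the replicate block). None was called higher, except 0 to 1 with 1 library left out in E8-cDRGcm (1 without E8-cDRGcm library 2, and 1 with either GC correction) and in E15.5-mSGcm (1 without E15.5-mSGcm library 1). By adjusted p alone, 9 fell in E8-cSGcm, 14 with either GC correction and 5 to 11 with 1 library left out (5 without control library 1). The cause of these changes was not tested.

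The share of MYCN in the network's RNA was 96.4%, 95.3%, 93.6% and 93.2% without MYCNOS in the sum, in control medium, E8-cSGcm, E8-cDRGcm and E15.5-mSGcm. With canonical transcript lengths, chosen after seeing the data, it was 91.6%, 89.7%, 86.6% and 85.3%. A fit with the replicate number as a block changed no member's call, for MYCN a log2 fold change of -0.45 in E8-cSGcm, -0.90 in E8-cDRGcm and -0.82 in E15.5-mSGcm. Deviations of libraries with the same number correlated at -0.0437 to 0.042. With 2 libraries per group, these values cannot tell whether libraries with the same number share a culture or a batch of medium. Depth limits genes with few counts, such as MYC with 26 or fewer in every library.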
